A study of Mus musculus with 8 samples.

Results

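The cadherins and protocadherins measured here were the 53 genes whose symbol is *Cdh*, *Pcdh* or *Pcdhb* followed by a number, of 30176 gene symbols that a transcript cluster of the array carried alone. *Cdh5*, the endothelial cadherin, was not among them and is used as an endothelial marker. They comprised 22 cadherins, 20 genes of the *Pcdhb* (beta protocadherin) cluster and 11 other protocadherins, and each had a single transcript cluster, which is the set of probes that the design of the array assigns to a transcribed region. RNA came from whole spinal cords of mouse embryos at E14.5, 4 without *Nfix* (*Nfix*-/-) and 4 wild-type littermates (*Nfix*+/+), from crosses of heterozygous mice on a C57Bl/6J background. *Nfix*-/- embryos are knockouts of the gene for the transcription factor NFIX, and the part of the gene that was removed is not given in the sources used here. Each array, labelled as biological replicate 1 to 4 of its genotype, held the RNA of a whole cord, so fewer cells of a type and less RNA per cell cannot be told apart.

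Cadherins are calcium-dependent adhesion proteins whose extracellular repeats bind partners on the neighbouring cell. Classical cadherins, of type I and type II, attach to the actin cytoskeleton through catenins, and in the spinal cord they hold the neuroepithelium together and help neurons of a kind to gather. Protocadherins have a related extracellular part and mostly weaker adhesion, and the clustered protocadherins, of which the *Pcdhb* genes are a subfamily, are switched on in different combinations in single neurons and serve in the recognition of self. Of the 22 cadherins 17 were classical, 5 of type I and 12 of type II, and 5 (*Cdh13*, *Cdh16*, *Cdh17*, *Cdh23* and *Cdh26*) were atypical, so the name classical fits most but not all of them.

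*Nfix* itself had log2 signals of 8.90, 8.88, 8.83 and 8.81 in *Nfix*-/- replicates 1 to 4, against 9.36, 9.18, 9.25 and 9.19 in *Nfix*+/+ replicates 1 to 4, a log2 difference of -0.39 (adjusted p = 0.00240 from limma, standard error 0.0544). Its signal stayed above the negative controls on all 8 arrays, and whether its probes lie in the deleted part was not tested. All differences below are *Nfix*-/- minus *Nfix*+/+ on the log2 scale, from a limma fit over 65956 transcript clusters with Benjamini-Hochberg adjustment, and a gene was counted as changed at an adjusted p under 0.05. The 95th percentile of the negative-control probe sets lay between 7.27 and 7.59 on the 8 arrays, and a gene is called above the controls where it exceeded this value on at least 4 arrays. The median of the negative controls was 4.88 in *Nfix*+/+ replicate 2 and 4.33 to 4.60 in the others. As a check of the tissue, all 8 neuronal marker genes and 7 of 8 neural progenitor genes were above the controls. The same held for 6 of 9 meningeal or fibroblast markers and 6 of 7 ganglion or Schwann cell markers. The check therefore does not single out spinal cord. Signals of different transcript clusters come from different probes and were not compared with each other as amounts of RNA.

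Of the 53 genes 5 rose in *Nfix*-/- spinal cord, none fell and 48 did not pass the test. The 5 were the type II cadherins *Cdh9* and *Cdh20*, the cluster members *Pcdhb3* and *Pcdhb5* and the endothelial protocadherin *Pcdh12*. This is 9.43% of the genes, against 11.5% higher and 10.5% lower over all transcript clusters, so the share of calls was no greater than the background. Their log2 differences lay between 0.19 and 0.49, and none reached the fold change of 1.5 used by the study, which 2.05% of all clusters passed together with the adjusted p. The 4 values of each genotype did not overlap in 9 of the 53 genes, against 28.1% of all clusters. Of these 9, 5 were the genes that passed the test, and the others were *Cdh2*, *Cdh13* and *Cdh18*, higher in *Nfix*-/-, and *Pcdhb8*, lower. After quantile normalization 3 of the 53 genes rose and 1 fell, and after cyclic loess 4 rose and 1 fell, the one that fell being *Pcdhb8* in both.

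None of the 26 genes above the controls passed the test, whereas 14.1% of all clusters above the controls were higher and 0.416% lower. That split depended on the scaling: 1661 of these clusters were higher and 49 lower with the deposited values, 299 and 165 after quantile normalization, and 382 and 273 after cyclic loess, which removes differences that depend on brightness. The 5 genes that passed were not among these 26: *Cdh20* exceeded the controls on 2 arrays and the other 4 on 0, although their means lay above the negative-control median of every array. The median difference of the 53 genes was 0.080, with 41 differences above 0, against a median of 0.025 over all clusters. Among the 26 genes above the controls the median was 0.091, against 0.090 over all 11778 clusters above the controls. The 26 genes thus lay, as a group, where bright clusters lay in general.

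**Figure D1:**
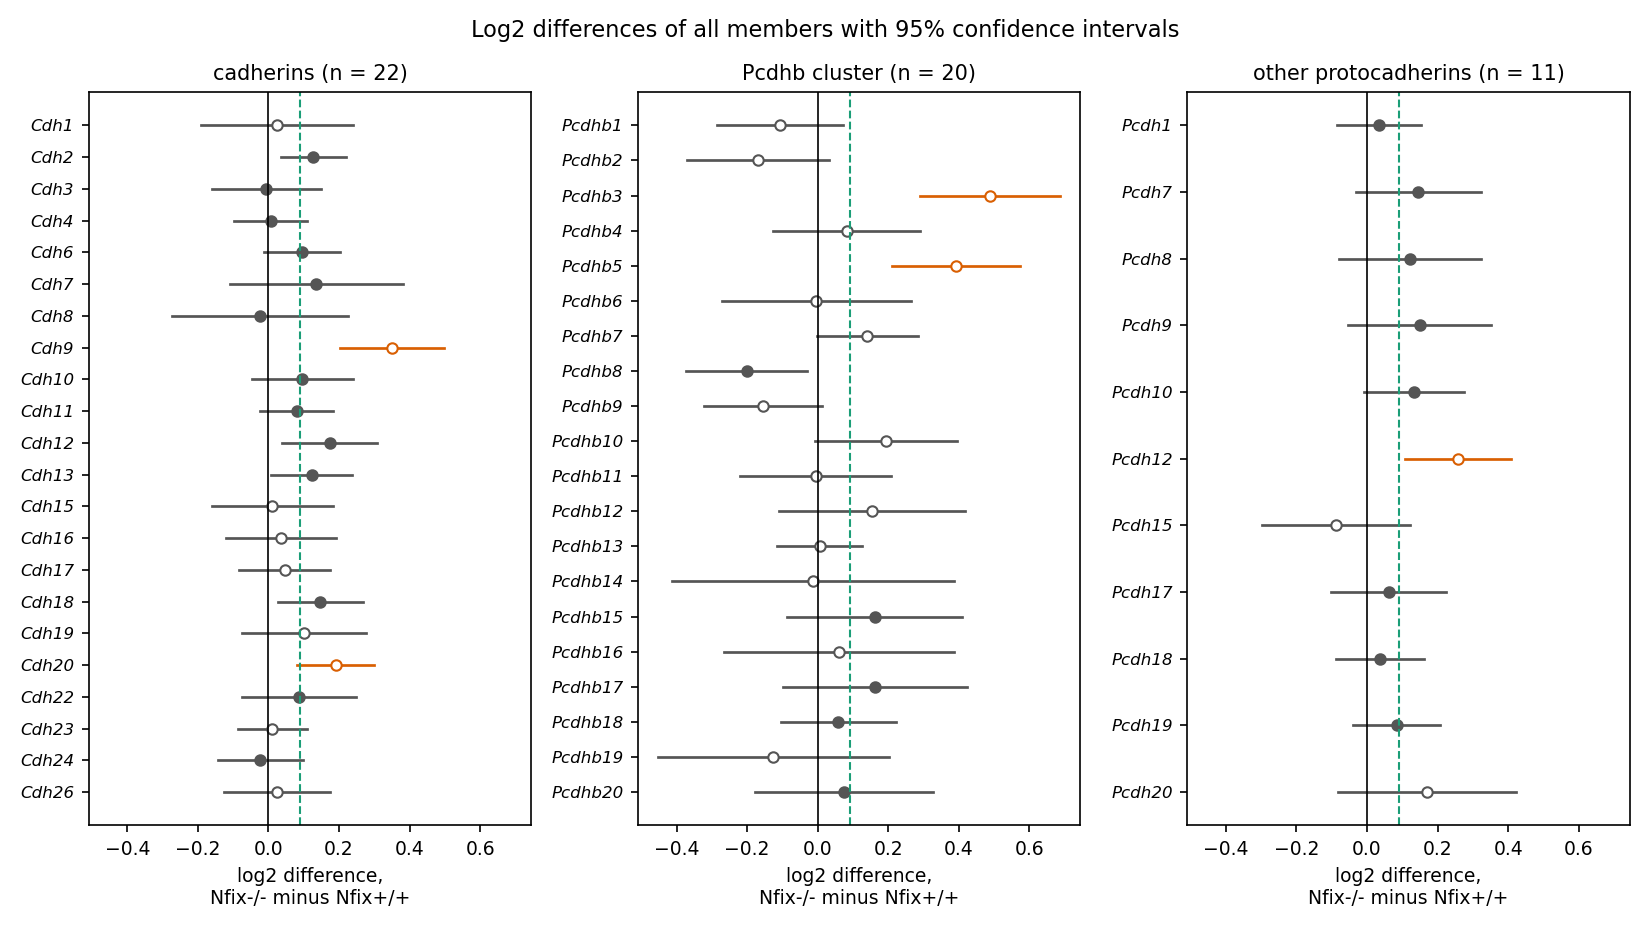
Log2 differences (*Nfix*-/- minus *Nfix*+/+, x axis) of the 22 cadherins, 20 *Pcdhb* genes and 11 other protocadherins, with 95% confidence intervals from limma. Orange marks the 5 genes with an adjusted p under 0.05, filled points the 26 genes above the controls, and the dashed line the median of all clusters above the controls (0.090).

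None of the 5 type I cadherins passed the test. *Cdh2*, or N-cadherin, the main cadherin of the neuroepithelium and of neurons, had log2 signals of 10.86, 10.87, 10.80 and 10.86 in *Nfix*-/- replicates 1 to 4, against 10.74, 10.69, 10.71 and 10.74 in *Nfix*+/+ replicates 1 to 4. Every *Nfix*-/- array lay above every *Nfix*+/+ array, and the log2 difference was 0.13 (standard error 0.0409, 95% confidence interval 0.034 to 0.22, adjusted p = 0.0563 from limma). The call depended on the test: the adjusted p was 0.0112 with the one-way test of the study's methods and 0.0229 when only clusters above the controls were fitted. After cyclic loess the difference was 0.0044. *Cdh4* (R-cadherin, known from the retina and brain) differed by 0.0073 (95% confidence interval -0.096 to 0.11) and *Cdh3* (P-cadherin) by -0.0058 (-0.16 to 0.15). *Cdh1* (E-cadherin, of epithelia) and *Cdh15* (M-cadherin, of muscle) were above the controls on 0 arrays, with differences of 0.024 and 0.012.

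Of the 12 type II cadherins *Cdh9* and *Cdh20* rose and 10 did not pass, which was not tested against the other subclasses. *Cdh9*, which in the mouse directs the connections of retinal bipolar cells and of hippocampal mossy fibres, had log2 signals of 6.92, 6.97, 6.92 and 7.08 in *Nfix*-/- replicates 1 to 4, against 6.72, 6.56, 6.69 and 6.53 in *Nfix*+/+ replicates 1 to 4. All *Nfix*-/- arrays lay above the *Nfix*+/+ arrays, of which replicates 2 and 4 were lowest. *Cdh9* rose from 6.62 ± 0.0969 (SD, n = 4) in *Nfix*+/+ to 6.97 ± 0.0773 (SD, n = 4) in *Nfix*-/-, a log2 difference of 0.35 (adjusted p = 0.00720 from limma, standard error 0.0641). It passed under each of the 15 alternative fits that included it, with adjusted p-values from 0.00563 to 0.0386.

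*Cdh20*, known in the chick as a cadherin of motor neuron pools, had log2 signals of 7.35, 7.33, 7.42 and 7.33 in *Nfix*-/- replicates 1 to 4, against 7.21, 7.22, 7.14 and 7.10 in *Nfix*+/+ replicates 1 to 4. The groups were narrow and did not overlap. *Cdh20* rose from 7.17 ± 0.0565 (SD, n = 4) in *Nfix*+/+ to 7.36 ± 0.0430 (SD, n = 4) in *Nfix*-/-, a log2 difference of 0.19 (adjusted p = 0.0239 from limma, standard error 0.0477). The call was lost after quantile normalization (adjusted p = 0.103) and cyclic loess (0.104), and without *Nfix*-/- replicate 1 (0.0516) or 3 (0.0644) or *Nfix*+/+ replicate 3 (0.0638) or 4 (0.0685). Of 7 motor neuron marker genes none rose and *Mnx1* fell by 0.30 (adjusted p = 0.0310). *Mnx1* was above the controls on 0 arrays, and its call held in 6 of 15 alternative fits and was lost after median scaling (0.0927) and quantile normalization (0.0727). The mean of the list ran from 6.93 to 7.10 in *Nfix*-/- and from 6.86 to 7.14 in *Nfix*+/+.

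**Figure D2:**
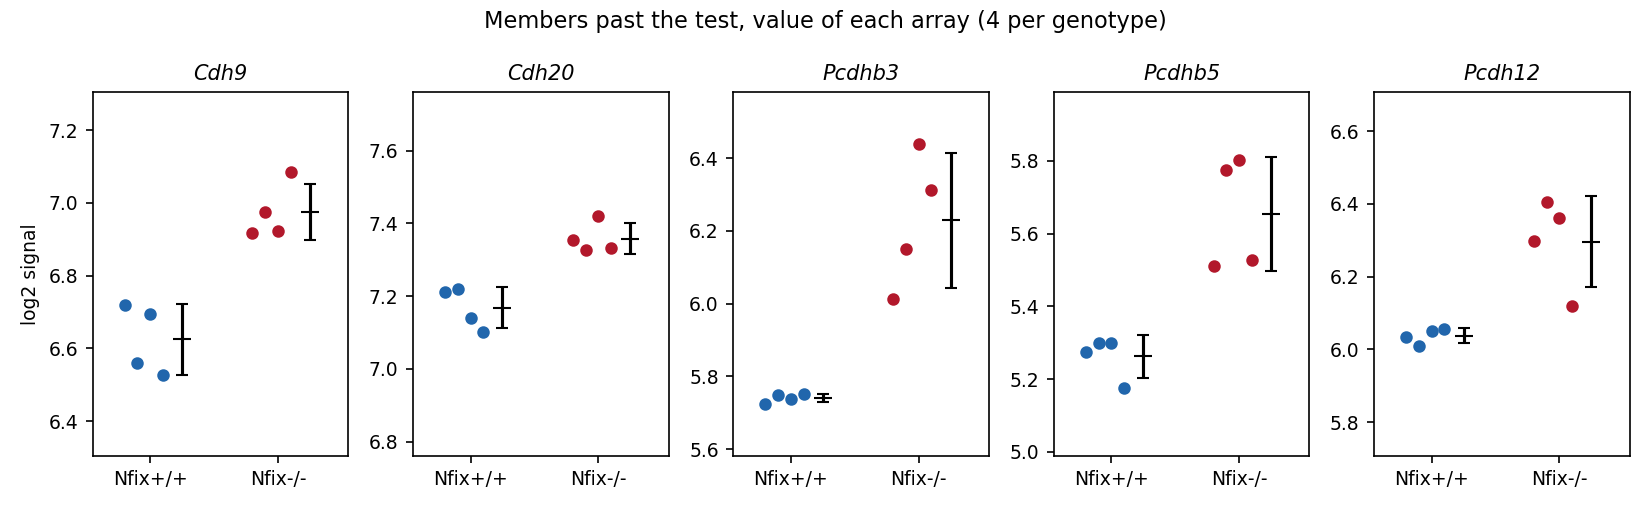
Log2 signal (y axis, a span of 1 log2 unit in each panel) of the 5 genes that passed the test, with a point for each of the 4 *Nfix*+/+ (blue) and 4 *Nfix*-/- (red) arrays and bars for the mean ± SD. In each panel the red points lie above all blue points, and the gap is narrowest for *Pcdh12*.

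*Cdh9* lies on chromosome 15 of GRCm38.p6, the assembly of mm10 (16728550 to 16857138), in a stretch of 10.4 Mb that holds 5 type II cadherin genes in the order *Cdh6*, *Cdh9*, *Cdh10*, *Cdh12* (from 20448878) and *Cdh18* (from 22548898). All 5 differences were above 0, with a median of 0.15, and only that of *Cdh9* passed the test. *Cdh12* had log2 signals of 8.64, 8.72, 8.65 and 8.65 in *Nfix*-/- replicates 1 to 4, against 8.64, 8.47, 8.46 and 8.40 in *Nfix*+/+ replicates 1 to 4, with a log2 difference of 0.17 (adjusted p = 0.0688, standard error 0.0592). The highest *Nfix*+/+ array, replicate 1, reached into the range of the *Nfix*-/- arrays, and without it the adjusted p was 0.0243. *Cdh18* had log2 signals of 7.68, 7.77, 7.72 and 7.73 in *Nfix*-/- replicates 1 to 4, against 7.66, 7.64, 7.52 and 7.50 in *Nfix*+/+ replicates 1 to 4, without overlap, with a difference of 0.15 (adjusted p = 0.0793). *Cdh6* and *Cdh10* differed by 0.097 and 0.097, close to the median of bright clusters. After cyclic loess *Cdh9* remained higher (0.30, adjusted p = 0.0134), while *Cdh12* and *Cdh18* were at 0.075 and 0.071.

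The promoters of the 2 type II cadherins that rose and of 2 neighbours of *Cdh9* are shown because NFI proteins bind DNA at known sites. Each runs from 250 bases before to 50 bases after a transcript start (RefSeq, GRCm38.p6), 5′ to 3′ on the strand of the gene, and capitals mark the NFI half-site, TTGGC on either strand (GCCAA when read on the other). The windows are chr15:16728665-16728964, plus strand for *Cdh9*, chr1:104768270-104768569, plus strand for *Cdh20*, chr15:21111202-21111501, plus strand for *Cdh12* and chr15:23036213-23036512, plus strand for *Cdh18*. In *Cdh12* and *Cdh18* this start lies 663 kb and 488 kb inside the gene as placed above, so these windows belong to an internal start, and which starts the measured transcripts use was not tested.
Cdh9: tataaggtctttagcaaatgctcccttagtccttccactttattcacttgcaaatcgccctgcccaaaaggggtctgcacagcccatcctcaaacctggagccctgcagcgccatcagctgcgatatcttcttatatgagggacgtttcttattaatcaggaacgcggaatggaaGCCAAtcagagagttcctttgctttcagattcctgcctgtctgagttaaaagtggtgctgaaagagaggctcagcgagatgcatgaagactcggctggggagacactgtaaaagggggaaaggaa
Cdh20: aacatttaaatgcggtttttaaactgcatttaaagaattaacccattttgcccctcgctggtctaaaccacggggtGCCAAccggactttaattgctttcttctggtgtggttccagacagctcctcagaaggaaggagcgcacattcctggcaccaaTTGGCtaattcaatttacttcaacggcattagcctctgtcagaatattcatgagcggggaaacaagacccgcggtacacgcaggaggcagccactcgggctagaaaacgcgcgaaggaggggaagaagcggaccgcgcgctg
Cdh12: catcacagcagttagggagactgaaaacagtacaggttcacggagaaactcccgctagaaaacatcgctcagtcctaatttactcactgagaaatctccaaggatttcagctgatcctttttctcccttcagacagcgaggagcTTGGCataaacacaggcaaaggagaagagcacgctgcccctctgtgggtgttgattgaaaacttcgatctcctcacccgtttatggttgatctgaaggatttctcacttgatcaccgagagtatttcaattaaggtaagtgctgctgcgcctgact
Cdh18: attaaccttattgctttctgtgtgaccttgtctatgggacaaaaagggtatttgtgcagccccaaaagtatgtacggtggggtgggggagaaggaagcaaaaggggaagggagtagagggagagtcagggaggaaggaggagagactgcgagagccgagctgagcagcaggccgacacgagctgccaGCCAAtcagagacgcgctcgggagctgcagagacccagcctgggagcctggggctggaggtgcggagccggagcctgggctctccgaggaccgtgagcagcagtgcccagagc

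*Cdh9*, *Cdh12* and *Cdh18* each held 1 half-site and *Cdh20* held 2, one on each strand. Of the 30 genes that lie on other chromosomes than the *Pcdhb* cluster, 22 were matched by symbol in the RefSeq table, with 25 windows, of which 17 held a half-site (68.0%), among them windows of genes that did not pass the test. The half-site is short and common: 46.7% of all 32851 promoter windows held it. The whole NFI palindrome, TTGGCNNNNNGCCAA, was in none of the windows of these genes and in 0.0365% of all windows. A match is a description of these letters and no evidence of binding.

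The other type II cadherins did not pass. *Cdh11*, a cadherin of mesenchymal cells, had log2 signals of 10.12, 10.15, 10.19 and 10.15 in *Nfix*-/- replicates 1 to 4, against 10.05, 10.11, 10.01 and 10.12 in *Nfix*+/+ replicates 1 to 4, with *Nfix*+/+ replicate 4 inside the range of the *Nfix*-/- arrays, and a log2 difference of 0.080 (95% confidence interval -0.023 to 0.18, adjusted p = 0.237 from limma). Its sign turned after cyclic loess (-0.037) and quantile normalization (-0.0087). Of 9 marker genes of meninges and fibroblasts, which also express *Cdh11*, 5 rose and none fell, and 3 rose after quantile normalization, after cyclic loess and without *Nfix*-/- replicate 3, *Nfix*+/+ replicate 3 or *Nfix*+/+ replicate 4. The mean of this list was 8.10 to 8.27 in *Nfix*-/- and 7.96 to 8.01 in *Nfix*+/+. Its part in the values of *Cdh11* was not tested. Of the cadherins *Cdh7* and *Cdh8* varied most within a genotype, and their intervals were wide, at -0.11 to 0.38 and -0.27 to 0.22. *Cdh8*, which marks other classes of neurons than *Cdh9* in the mouse retina, was highest in replicate 4 of *Nfix*-/- (8.86) and replicate 2 of *Nfix*+/+ (8.90). *Cdh22* and *Cdh24* differed by 0.086 and -0.023, and *Cdh19*, a cadherin of Schwann cell precursors, by 0.10 with signals above the controls on 0 arrays.

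None of the 5 atypical cadherins passed. *Cdh13*, or T-cadherin, which is held at the membrane by a lipid anchor and has no cytoplasmic tail, had log2 signals of 9.27, 9.38, 9.28 and 9.32 in *Nfix*-/- replicates 1 to 4, against 9.27, 9.20, 9.18 and 9.11 in *Nfix*+/+ replicates 1 to 4. The groups parted so narrowly that the highest *Nfix*+/+ and the lowest *Nfix*-/- array round to the same value, and the log2 difference was 0.12 (adjusted p = 0.118 from limma, standard error 0.0506), falling to 0.015 after cyclic loess. *Cdh16* (kidney), *Cdh17* (intestine), *Cdh23* (a part of the tip links of hair cells) and *Cdh26* were above the controls on 0 arrays, with differences from 0.011 to 0.046. Of the cadherins 7 lie on chromosome 8, the chromosome of *Nfix*, at 14.2 to 38.0 Mb from it. Their differences had a median of 0.024 and none passed, against a median of 0.097 for the 15 cadherins on other chromosomes. These 15 include the 5 on chromosome 15, with a median of 0.15, and the median of all clusters above the controls was 0.090. The contrast between the chromosomes was not tested.

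In the *Pcdhb* cluster *Pcdhb3* and *Pcdhb5* rose and 18 genes did not pass. The 20 genes lie in a row on chromosome 18 of GRCm38.p6, from 37264998 to 37507660, and each has a large exon of its own that encodes the whole extracellular part. *Pcdhb3* had log2 signals of 6.01, 6.15, 6.44 and 6.31 in *Nfix*-/- replicates 1 to 4, against 5.72, 5.75, 5.74 and 5.75 in *Nfix*+/+ replicates 1 to 4. The 4 *Nfix*+/+ values were almost equal, and the lowest *Nfix*-/- value, replicate 1, was still well above them. *Pcdhb3* rose from 5.74 ± 0.0121 (SD, n = 4) in *Nfix*+/+ to 6.23 ± 0.186 (SD, n = 4) in *Nfix*-/-, a log2 difference of 0.49 (adjusted p = 0.00635 from limma, standard error 0.0870). *Pcdhb3* and *Pcdhb5* were above the controls on 0 arrays in either genotype, so no fold is given.

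*Pcdhb5* had log2 signals of 5.51, 5.77, 5.80 and 5.53 in *Nfix*-/- replicates 1 to 4, against 5.27, 5.30, 5.30 and 5.18 in *Nfix*+/+ replicates 1 to 4. The *Nfix*-/- arrays fell into a higher pair, replicates 2 and 3, and a lower pair, replicates 1 and 4, both above the *Nfix*+/+ arrays. *Pcdhb5* rose from 5.26 ± 0.0589 (SD, n = 4) in *Nfix*+/+ to 5.65 ± 0.156 (SD, n = 4) in *Nfix*-/-, a log2 difference of 0.39 (adjusted p = 0.0106, standard error 0.0795). Both genes passed under each of 15 alternative fits, with differences of 0.42 to 0.56 for *Pcdhb3* and 0.34 to 0.44 for *Pcdhb5*. *Pcdhb4*, which lies between them, had a difference of 0.082 (95% confidence interval -0.13 to 0.29), and *Pcdhb2* and *Pcdhb6*, on the outer sides, had -0.17 and -0.0037. The 2 rises thus did not extend over neighbours at a size the test could call. The *Pcdhb* genes are close in sequence, and how far the probes of each tell it from the others was not tested.

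**Figure D3:**
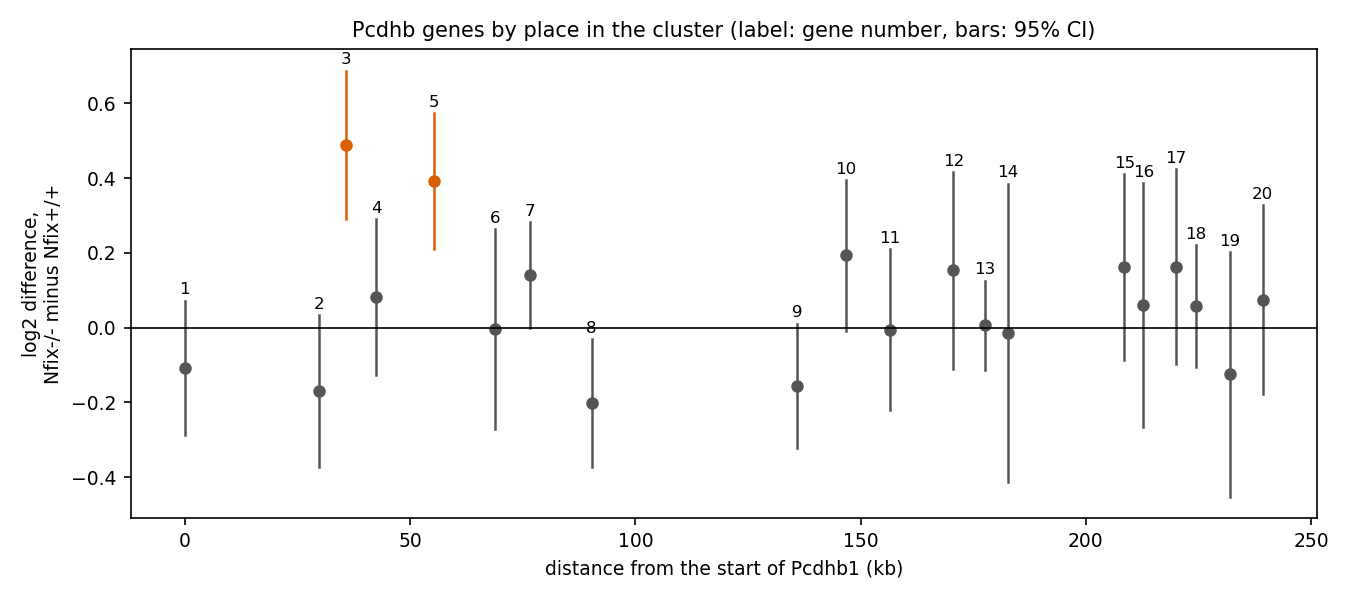
Log2 difference (*Nfix*-/- minus *Nfix*+/+, y axis) of the 20 *Pcdhb* genes against the distance of each gene from the start of *Pcdhb1* in kb, numbered by gene, with 95% confidence intervals from limma. *Pcdhb3* and *Pcdhb5* (orange) stand above 0 with *Pcdhb4* between them near 0, and *Pcdhb8* has the lowest difference.

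*Pcdhb8* had the most negative difference of the cluster. It had log2 signals of 7.65, 7.79, 7.94 and 7.94 in *Nfix*-/- replicates 1 to 4, against 8.05, 7.97, 7.99 and 8.12 in *Nfix*+/+ replicates 1 to 4. Every *Nfix*-/- array lay below every *Nfix*+/+ array, and replicate 1 of *Nfix*-/- was the lowest. The log2 difference was -0.20 (adjusted p = 0.0884 from limma, standard error 0.0749), short of the threshold, and -0.14 without *Nfix*-/- replicate 1. It was past the threshold after quantile normalization (difference -0.28, adjusted p = 0.0391), after cyclic loess (-0.29, adjusted p = 0.0283) and with array weights (-0.22, adjusted p = 0.0454). *Pcdhb8* is the only member of the cluster that was above the controls with a difference below 0.

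Of the other cluster genes above the controls, *Pcdhb15* had log2 signals of 7.60, 7.93, 8.12 and 8.04 in *Nfix*-/- replicates 1 to 4, against 7.83, 7.80, 7.65 and 7.77 in *Nfix*+/+ replicates 1 to 4. *Pcdhb17* had log2 signals of 7.46, 7.68, 7.89 and 7.83 in *Nfix*-/- replicates 1 to 4, against 7.67, 7.72, 7.36 and 7.46 in *Nfix*+/+ replicates 1 to 4. In both, *Nfix*-/- replicate 1 was lowest of its genotype and *Nfix*-/- replicate 3 was highest, and the groups overlapped. Their differences were 0.16 (95% confidence interval -0.088 to 0.41) and 0.16 (-0.097 to 0.42), and without *Nfix*-/- replicate 1 that of *Pcdhb15* was 0.27 and passed (adjusted p = 0.0377). *Pcdhb18* and *Pcdhb20* differed by 0.058 and 0.075. The 15 genes of the cluster that were not above the controls had differences from -0.17 (*Pcdhb2*) to 0.49 (*Pcdhb3*), and over the whole cluster 12 differences were above 0 and 8 below, with a median of 0.059. *Pcdhb21* and *Pcdhb22* share a transcript cluster and were not counted, and its difference was 0.087 (adjusted p = 0.498). That of the alpha protocadherins, which 15 symbols share, was 0.12 (adjusted p = 0.259).

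Many of the *Pcdhb* genes were lowest or highest on the same arrays of a genotype. Replicate 1 was the lowest *Nfix*-/- array in 15 of the 20 genes and replicate 3 the highest in 13, and among *Nfix*+/+ arrays replicate 3 was the lowest in 12 and replicate 2 the highest in 13. Part of this order was found in the other classes. *Nfix*-/- replicate 1 was lowest in 11 of 22 cadherins and 7 of 11 other protocadherins, and replicate 3 highest in 5 and 1. *Nfix*+/+ replicate 3 was lowest in 5 and 5 of them, and replicate 2 highest in 6 and 6. The mean over the cluster spanned 6.22 to 6.52 in *Nfix*-/- and 6.22 to 6.45 in *Nfix*+/+, with the same arrays at the ends, so that the genotypes overlapped. The negative-control medians of the *Nfix*+/+ arrays, at 4.37, 4.88, 4.33 and 4.49 in replicates 1 to 4, had the same order as these means. Those of the *Nfix*-/- arrays, at 4.34, 4.40, 4.36 and 4.60, had another order than the means. Replicate 1 was the lowest *Nfix*-/- array in both, but replicate 3 had the highest mean and replicate 4 the highest control median. Of the 20 genes 15 were not above the controls, and the part of the background in their shared movement was not tested. The mean over the 22 cadherins, in contrast, varied little within a genotype, at 7.50 ± 0.0117 (SD, n = 4) without and 7.42 ± 0.0244 (SD, n = 4) with *Nfix*, against 6.39 ± 0.125 and 6.33 ± 0.0940 for the cluster. The median SD of a single gene within a genotype was 0.137 in the cluster, 0.0810 in the cadherins and 0.101 in the other protocadherins. This spread contributes to how small a difference the test could call, but does not set it alone, because limma also draws on the spread of all clusters. No test of the classes against each other was made.

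**Figure D4:**
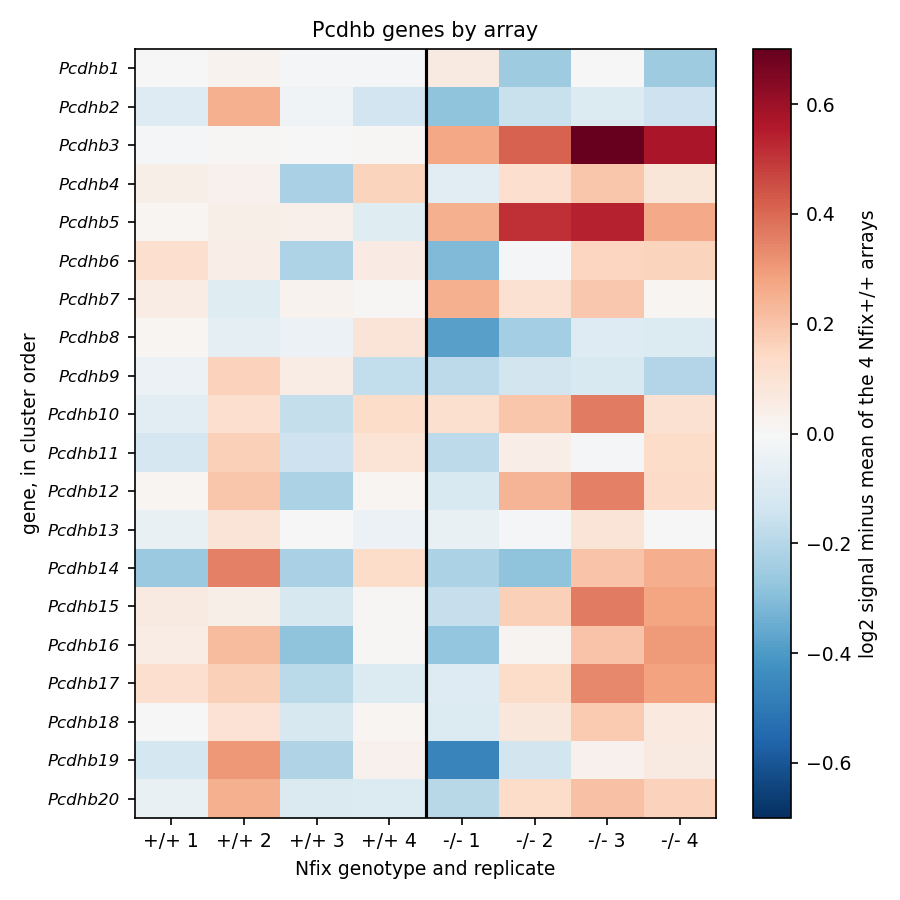
Log2 signal of each *Pcdhb* gene (rows, in the order of the cluster) on each array (columns, *Nfix* genotype and replicate), as the difference from the mean of the 4 *Nfix*+/+ arrays. *Pcdhb3* and *Pcdhb5* are red in all 4 *Nfix*-/- columns, while most other rows are blue in replicate 1 and red in replicate 3 of *Nfix*-/-.

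Against this shared movement, *Pcdhb3*, *Pcdhb5* and *Pcdhb8* kept their differences. When the mean of the other 19 genes of the cluster was subtracted in each array, the difference between genotypes was 0.45 for *Pcdhb3*, 0.35 for *Pcdhb5* and -0.27 for *Pcdhb8*, without overlap of the genotypes in any of the 3. For *Pcdhb8* the 19 genes included *Pcdhb3* and *Pcdhb5*, whose rises move its difference further below 0. The 3 genes were singled out after their values were seen, so the numbers are a description and carry no test.

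Among the 11 other protocadherins *Pcdh12* rose and 10 did not pass. *Pcdh12*, a protocadherin of endothelial cells, had log2 signals of 6.30, 6.41, 6.36 and 6.12 in *Nfix*-/- replicates 1 to 4, against 6.03, 6.01, 6.05 and 6.06 in *Nfix*+/+ replicates 1 to 4. The *Nfix*+/+ values were close together, and replicate 4 of *Nfix*-/- lay only just above them. *Pcdh12* rose from 6.04 ± 0.0210 (SD, n = 4) in *Nfix*+/+ to 6.30 ± 0.126 (SD, n = 4) in *Nfix*-/-, a log2 difference of 0.26 (adjusted p = 0.0249 from limma, standard error 0.0655), with signals above the controls on 0 arrays. The difference ran from 0.22 to 0.32 over 15 alternative fits, while its adjusted p crossed the threshold. The call held in 7 of these fits, in 2 of the 8 that left out an array (those without *Nfix*-/- replicate 4 or *Nfix*+/+ replicate 2), and was lost after quantile normalization (difference 0.25, adjusted p = 0.0613), while it passed after cyclic loess (0.0422). The adjusted p over these fits ran from 0.00607 to 0.0673.

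Values of 11 endothelial genes were set beside *Pcdh12*. *Cdh5*, the cadherin of endothelial junctions, rose by 0.27 (adjusted p = 0.00812, lost after quantile normalization at 0.0742), and of the 11 genes 3 rose (*Cdh5*, *Emcn* and *Sox18*), none fell and 8 did not pass. The differences of these 8 ran from -0.045 (*Flt1*) to 0.093 (*Tek*), and 3 of them, *Flt1*, *Cldn5* and *Esam*, were below 0. The call of *Sox18* held in 4 of 16 alternative fits, and 1 gene of the list rose after quantile normalization and 2 after cyclic loess, where the median of the list moved from 0.062 to 0.0059 and -0.0071. The mean of the list was 7.52 to 7.67 in *Nfix*-/- and 7.44 to 7.55 in *Nfix*+/+, and the ranges overlap, with *Nfix*+/+ replicate 2 lowest, and 4 of the 11 genes were above the controls on 0 arrays. The part of endothelial RNA in the rise of *Pcdh12* was not tested.

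The delta protocadherins, most of which act in the growth and sorting of axons, lay above the controls and did not pass. *Pcdh7* had log2 signals of 9.215, 9.279, 9.336 and 9.409 in *Nfix*-/- replicates 1 to 4, against 9.226, 9.322, 9.001 and 9.108 in *Nfix*+/+ replicates 1 to 4, a log2 difference of 0.15 (95% confidence interval -0.032 to 0.32). *Pcdh9* had log2 signals of 8.59, 8.72, 8.77 and 8.84 in *Nfix*-/- replicates 1 to 4, against 8.51, 8.81, 8.45 and 8.56 in *Nfix*+/+ replicates 1 to 4, a difference of 0.15 (-0.053 to 0.35). *Pcdh17* had log2 signals of 8.73, 8.90, 8.81 and 8.94 in *Nfix*-/- replicates 1 to 4, against 8.81, 8.93, 8.72 and 8.68 in *Nfix*+/+ replicates 1 to 4, a difference of 0.061 (-0.10 to 0.22). In all 3 genes *Nfix*-/- replicate 4 and *Nfix*+/+ replicate 2 were the highest arrays of their genotype, and the groups overlapped. Without *Nfix*+/+ replicate 2 the difference of *Pcdh9* was 0.23 and passed (adjusted p = 0.0485). *Pcdh17* turned its sign after quantile normalization (-0.040) and cyclic loess (-0.041). *Pcdh10*, which guides axons in the mouse forebrain, differed by 0.13, *Pcdh8* by 0.12, *Pcdh19*, on the X chromosome, by 0.084, *Pcdh18* by 0.036 and *Pcdh1* by 0.034. *Pcdh15*, the partner of *Cdh23* in tip links, and *Pcdh20* were above the controls on 0 arrays, with differences of -0.088 and 0.17.

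Set side by side, the classes had similar shares of calls: 2 of 22 cadherins (9.09%), 2 of 20 *Pcdhb* genes (10%) and 1 of 11 other protocadherins (9.09%). Their median differences were 0.083, 0.059 and 0.12, and 19 of 22, 12 of 20 and 10 of 11 differences were above 0, against 55.1% of all clusters and 83.9% of those above the controls. After cyclic loess 29 of the 53 genes were above 0 and the medians of the 3 classes were 0.011, -6.8e-05 and 0.036. The small upward shift of most cadherins and protocadherins thus depended on the scaling of the arrays, and the calls of *Cdh9*, *Pcdhb3* and *Pcdhb5* did not. Among genes that did not pass, the 95% confidence intervals lay within -0.27 to 0.38 in the cadherins, -0.45 to 0.42 in the *Pcdhb* cluster and -0.30 to 0.42 in the other protocadherins.

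**Figure D5:**
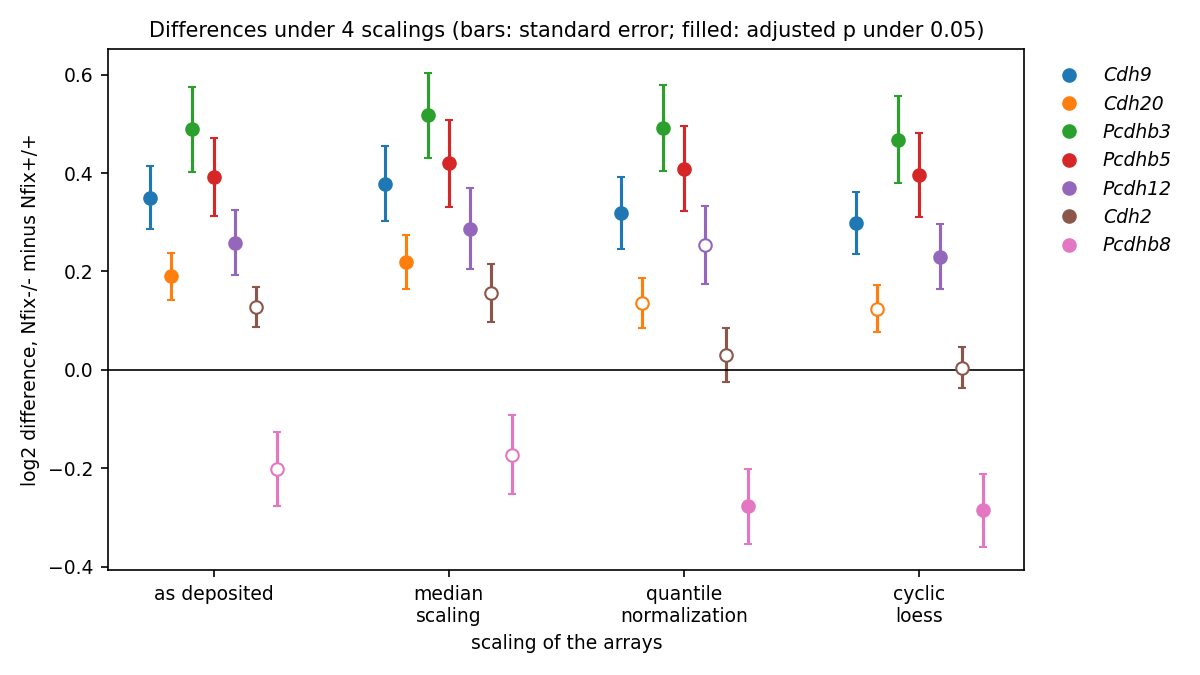
Log2 difference (*Nfix*-/- minus *Nfix*+/+, y axis) of 7 genes with the deposited values and after 3 further scalings of the arrays, with standard errors from limma as bars. Filled points passed an adjusted p under 0.05: *Cdh9*, *Pcdhb3* and *Pcdhb5* did so under all 4 scalings, *Cdh20* and *Pcdh12* under some, *Cdh2* under none and *Pcdhb8* after quantile normalization and cyclic loess.

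Counts for partners of these proteins are set beside the background, in which 11.5% of all clusters were higher and 10.5% lower. Of 16 genes of catenins and junction partners none rose or fell, with a median difference of 0.072. The lowest p was that of *Adam10*, a protease that sheds cadherin ectodomains, at 0.13 (adjusted p = 0.0702 from limma), followed by *Vcl* (vinculin) at 0.12 and *Ctnnd1* (p120-catenin) at 0.12, while *Ctnnb1* (beta-catenin) was not analysed here. Of 23 other members of the cadherin superfamily, 3 desmosomal genes fell and none rose: *Dsc2* by 0.46, *Dsc3* by 0.18 and *Dsg2* by 0.19. All 3 were above the controls on 0 arrays with mean signals of 3.95 to 4.92, near the medians of the negative controls, and *Dsc2* alone passed after each of the 3 other scalings.

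Of 14 genes that regulate the clustered protocadherins, 3 rose and none fell. Of the 14, 12 were above the controls, and 14.1% of all clusters above the controls were higher. They were *Wapl*, which releases cohesin from DNA, at 0.19 (adjusted p = 0.0167 from limma), *Setdb1*, a histone methyltransferase, at 0.16 (0.0269) and the cohesin subunit *Rad21* at 0.15 (0.0293). *Ctcf*, which with cohesin loops enhancers to the promoters of the clusters, was at 0.10 (0.104). None of the 14 passed after quantile normalization or cyclic loess, where the median of the list moved from 0.11 to 0.0047 and 0.0045. Of 6 transcription factors known as repressors of cadherin genes *Twist2* rose by 0.38 (adjusted p = 0.0282) and 5 did not pass, with *Zeb1* at 0.059 and *Snai1* at -0.076. *Twist2* was above the controls on 0 arrays, and its call was lost in 6 of the 8 fits that left out an array.

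RNA of other cell types that express cadherins was also measured. Of 10 skeletal muscle genes 2 rose (*Myl1* and *Tnnt1*), 1 fell (*Myf5*) and 7 were above the controls on 0 arrays. The calls of *Myl1* and *Tnnt1* held in 4 and 5 of 15 alternative fits, with 0 genes higher after quantile normalization, while that of *Myf5* held in 15. The mean of the muscle list was 6.13 to 6.69 in *Nfix*-/- and 5.89 to 6.39 in *Nfix*+/+, beside a difference of 0.012 for *Cdh15*. Of 7 markers of Schwann cells and sensory ganglia none passed, with a list mean of 8.25 to 8.43 and 7.90 to 8.32, lowest in *Nfix*+/+ replicate 2. All 8 epithelial genes were above the controls on 0 arrays, as was *Cdh1*, and *Cldn4* alone rose, by 0.31, a call that held in 6 of 15 alternative fits. Without *Nfix*+/+ replicate 2 all 5 genes that had passed (*Cdh9*, *Cdh20*, *Pcdhb3*, *Pcdhb5* and *Pcdh12*) still passed. Over the 8 fits that left out an array, however, the call of *Cdh20* held in 4 and that of *Pcdh12* in 2.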

How the data were processed

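RNA of 8 whole spinal cords, 4 for each genotype, was measured on Affymetrix Mouse Transcriptome Arrays. The study reports fewer mice of each genotype than the 4 arrays that the series holds. The authors ran SST-RMA on gene level over the whole set of scans with Expression Console software, mm10 was the genome version of their later comparison, and the deposited values are log2 signals, 1 for each transcript cluster and array. They were used as deposited, without filter or further normalization. Of 72688 rows, 6732 control probe sets were left out. Genes were named by the platform annotation and placed through RefSeq on GRCm38.p6.

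Genotypes were compared in an unpaired design (lmFit and eBayes of limma 3.58.1, run in R 4.3.3) over 65956 clusters with Benjamini-Hochberg adjustment, and the script was tested on simulated data. The members, classes and gene lists were chosen with earlier results of these data known. Values in every array were given for members past the test, for the 3 with the highest mean signal in each class, and for others described in detail after their values were seen. Of each partner list up to 3 genes with the lowest p were named, and others, such as *Ctcf*, *Flt1* and *Tek*, after their values were seen. Alternatives covered the one-way ANOVA of the methods, an intensity trend in the prior, array weights, 3 scalings, a filter on dim clusters, each array left out, a replicate block and a fold cut-off. The number of arrays limits the precision. Whether the 8 cords came from separate litters is not given in the sources used here, so p-values measure the spread between these samples.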

Additional observations from a re-analysis of the deposited data

Results flagged for a closer look

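Of 114 groups of 4 arrays examined, 3 held an array well apart from the rest of its genotype, a number below the 1 group in 20 that chance gives. *Cdh2* in *Nfix*-/- replicate 3 lay at a log2 signal of 10.80 and replicates 1, 2 and 4 between 10.86 and 10.87. *Pcdhb20* in *Nfix*+/+ replicate 2 lay at 7.82 and replicates 1, 3 and 4 between 7.47 and 7.51. *Pcdh8* in *Nfix*-/- replicate 4 lay at 7.42 and replicates 1, 2 and 3 between 7.71 and 7.75.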

How the results depend on the processing

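The calls of *Cdh9*, *Pcdhb3* and *Pcdhb5* held under each alternative fit that included these genes, and those of *Cdh20* and *Pcdh12* under 8 and 7 of 15. The number of cadherins called, 2 as reported, was 4 with an intensity trend, 1 after quantile normalization, 1 after cyclic loess, 1 when only clusters above the negative controls were fitted and 0 with the fold cut-off, and 1 to 3 with each array left out. The number of *Pcdhb* genes called, 2 as reported, was 0 with only clusters above the controls and 0 with the fold cut-off, and 2 to 3 with each array left out. That of the other protocadherins, 1 as reported, was 0 after quantile normalization, 0 with only clusters above the controls and 0 with the fold cut-off, and 0 to 2 with each array left out. All clusters called numbered 14520 as reported, 2500 of 11778 above the controls, 1351 with the fold cut-off and 9858 to 15080 with each array left out. The fall of *Nfix* (-0.39) did not reach the fold cut-off.

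The median difference of the cadherins, 0.083 as reported, was 0.11 after median scaling, 0.019 after quantile normalization and 0.011 after cyclic loess, and that of the other protocadherins, 0.12, was 0.035 and 0.036 after the latter 2. These scalings moved the median of all clusters above the controls from 0.090 to 0.12, 0.00029 and -0.0060. *Cdh11* (-0.0087 and -0.037) and *Pcdh17* (-0.040 and -0.041) turned their sign after quantile normalization and cyclic loess, without a call on either side. No member had more than 1 transcript cluster, so another rule for choosing it gave the same values.

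With the replicate number as a block (a paired fit), 1 cadherin (*Cdh9*), 2 *Pcdhb* genes (*Pcdhb3* and *Pcdhb5*) and 0 other protocadherins passed. The labels share numbers between genotypes without saying that they pair samples. The deviations of same-numbered arrays correlated at 0.47, -0.15, 0.040 and -0.075, and 0 of 4 *Nfix*-/- arrays correlated best with their own number. No pairing across all 4 numbers was seen, and whether same-numbered samples shared a litter or a batch was not tested. Signal over background limits the dim genes: 27 of the 53 were not above the negative controls on at least 4 arrays, among them the 5 that passed.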
